A study of Rattus norvegicus with 12 samples.

Results

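The Nr4a orphan nuclear receptors Nr4a1, Nr4a2 and Nr4a3 were examined in the hippocampus of young rats that had received KA or PBS and were reared alone or in an enriched environment. Every probe set whose single gene symbol in the array annotation was Nr4a1, Nr4a2 or Nr4a3 was taken, which gave 5 of the 15923 probe sets on the array: 1 for Nr4a1, 2 for Nr4a2 and 2 for Nr4a3. They are 3 of the 10412 genes that had a probe set with a single symbol. Of the 5 probe sets, 4 lay above the filter on dim signal, among the 9520 probe sets that were tested. The dimmer Nr4a3 probe set lay below it and is described by its signal alone. The 3 genes were chosen by their signal in enriched against isolated rats on these same arrays, so that difference is described here without a test. The effects of KA and their dependence on housing were tested.

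Nr4a proteins are transcription factors with the zinc finger DNA-binding domain of nuclear receptors, but they work without a known hormone, so their activity follows their abundance. In neurons their genes are immediate early genes. Synaptic activity, calcium and cyclic AMP switch them on within the hour through CREB, and their RNA is short-lived. In rodent hippocampus the family takes part in the consolidation of long-term memory, and Nr4a2 is also required for midbrain dopamine neurons.

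The 12 samples formed 4 groups of 3, each sample being hippocampal RNA pooled from 3 to 4 rats and hybridised to 1 array. All rats were treated at postnatal day 20 with PBS, phosphate-buffered saline, or with KA. The labels do not spell out KA, which is read as kainic acid, an agonist of glutamate receptors that causes seizures. PBS_isolated and KA_isolated rats were reared 1 to a cage for 10 days, which for PBS_isolated are labelled as the 10 days before sacrifice. PBS_enriched and KA_enriched rats shared large cages in groups of 8 for a time the labels do not give. The time from treatment to sacrifice is not given in the labels. No group had ordinary group housing, strain and sex are not given in the labels, and the labels do not say which pools shared a litter or cage. The spread behind every p-value is that between pools, and enrichment cannot be told apart from the absence of isolation or from a shared cage. Signals are array intensities on a linear scale, and differences are on the scale log2(signal + 17), which understates changes of dim genes. Folds are taken from these differences, so they are ratios of signal plus 17.

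Promoter sequence of Nr4a1 and Nr4a2 is shown because these genes are activated through CREB, whose half-site TGACG was searched on both strands in the window from 250 bases before to 50 bases after the RefSeq start (build GRCr8). The capitals mark each half-site, read as TGACG on the gene's strand or as CGTCA where it lies on the other strand.
Nr4a1, chr7:134259888-134260187, plus strand: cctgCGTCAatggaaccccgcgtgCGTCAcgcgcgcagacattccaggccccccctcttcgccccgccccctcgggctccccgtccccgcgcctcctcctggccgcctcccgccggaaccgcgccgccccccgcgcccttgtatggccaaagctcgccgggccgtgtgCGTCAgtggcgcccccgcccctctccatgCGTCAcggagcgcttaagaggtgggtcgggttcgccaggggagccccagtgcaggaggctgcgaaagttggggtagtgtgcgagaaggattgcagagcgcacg
Nr4a2, chr3:62104838-62105137, minus strand: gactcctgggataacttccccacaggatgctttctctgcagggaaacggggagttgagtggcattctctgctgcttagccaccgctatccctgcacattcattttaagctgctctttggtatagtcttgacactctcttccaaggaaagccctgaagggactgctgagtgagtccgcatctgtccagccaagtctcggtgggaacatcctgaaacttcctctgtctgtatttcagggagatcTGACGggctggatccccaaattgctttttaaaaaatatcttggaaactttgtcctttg
The Nr4a1 window held 4 half-sites, beginning 246, 226, 82 and 53 bases before the start, a number reached by 0.236% of the 33469 rat promoters of the same length. The Nr4a2 window held 1, beginning 8 bases before the start, and 21.2% of promoters held at least 1. The Nr4a1 window had 72.3% G and C against a median of 51.7% over all promoters, and the Nr4a2 window 48.7%. The full cyclic AMP response element TGACGTCA, which would contain the half-site, was found in 0 of the 2 windows and in 1.83% of promoters. The Nr4a binding element AAAGGTCA, present in 1.43% of promoters, was not found in either, nor were the AP-1 site TGANTCA (7.33%) or the serum response element known as the CArG box (1.64%). The EGR site GCGGGGGCG matched once in the Nr4a1 window and in 2.73% of promoters. Both windows lie inside the annotated span of their gene. On the gene's own strand each span begins before the window, and starts further upstream were not searched. Nr4a1 spans chr7:134247153-134268044, Nr4a2 chr3:62098739-62115926 and Nr4a3 chr5:67157141-67198287. A match of letters says nothing of binding in these samples.

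All 3 Nr4a genes had more signal in enriched than in isolated rats. For Nr4a1, replicates 1, 2 and 3 of PBS_isolated gave signals of 189, 186 and 152, and those of KA_isolated 149, 162 and 144. The PBS_enriched replicates gave 180, 215 and 204, and the KA_enriched replicates 193, 243 and 182. Of the 6 enriched samples, 4 lay above the highest isolated sample, and the groups overlapped between 180 and 189. The mean was 164 ± 19.4 (SD, n = 6) in isolated and 203 ± 23.6 in enriched rats, a log2 difference of 0.28 (SE 0.079) or 1.22-fold.

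Nr4a2, by its brighter probe set, had signals of 97.8, 103 and 127 in the PBS_isolated replicates and 95.4, 102 and 106 in those of KA_isolated. The enriched replicates had 132, 135 and 143 after PBS and 153, 121 and 134 after KA. Here 5 of 6 enriched samples exceeded every isolated sample, and KA_enriched replicate 2 fell below PBS_isolated replicate 3. The means were 105 ± 11.3 and 136 ± 10.9 (SD, n = 6), with a log2 difference of 0.33 (SE 0.07) or 1.26-fold.

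Nr4a3, by its brighter probe set, had 364, 343 and 358 in isolated rats after PBS and 324, 324 and 277 after KA. Enriched rats had 394, 399 and 409 after PBS and 361, 451 and 360 after KA. The enriched samples again lay higher, 4 of 6 above every isolated sample, with an overlap of only a few units of signal at 360 to 364. The means were 332 ± 31.3 and 396 ± 33.9 (SD, n = 6), with a log2 difference of 0.24 (SE 0.066) or 1.18-fold.

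**Figure D1:**
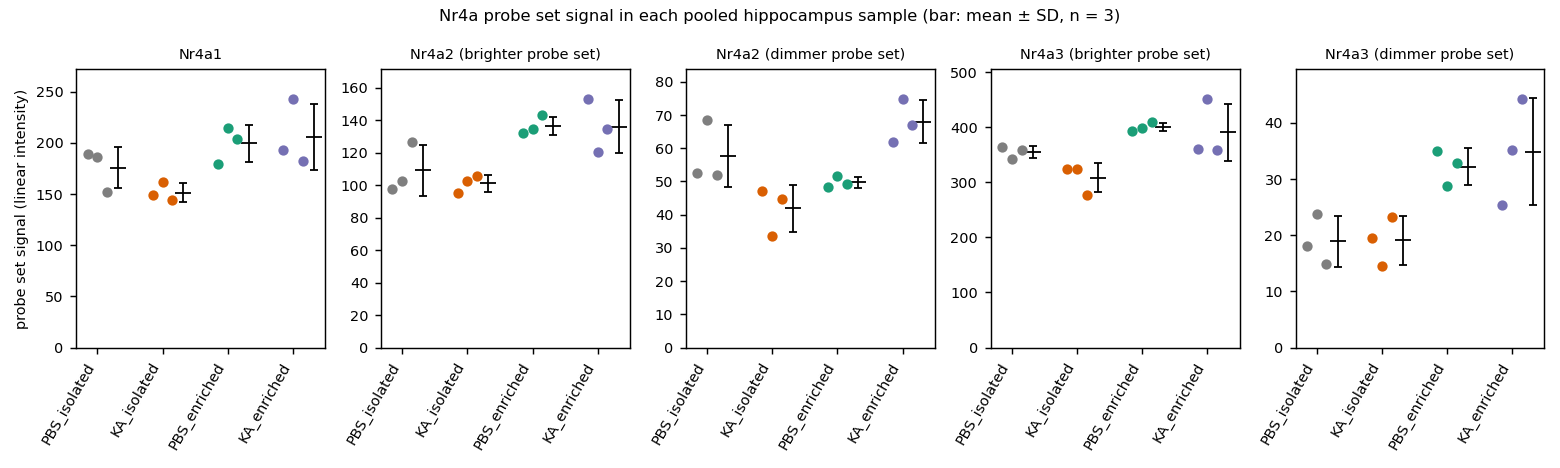
Linear signal of the 5 Nr4a probe sets in each of the 12 samples, with a point per pool and a bar for the mean ± SD of a group (n = 3). In all panels but that of the dimmer Nr4a2 probe set, both enriched groups have higher means than both isolated groups, and the dimmer Nr4a3 probe set separates the housings without overlap.

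The order of the group means was the same at its lower end for the 3 brighter probe sets: KA_isolated lowest, then PBS_isolated, then the 2 enriched groups. For Nr4a1 the means were 151 ± 9.12, 176 ± 20.4, 199 ± 18.0 in PBS_enriched and 206 ± 32.2 in KA_enriched (SD, n = 3). For Nr4a2 they were 101 ± 5.29, 109 ± 15.5, 136 ± 16.3 in KA_enriched and 137 ± 5.66 in PBS_enriched. For Nr4a3 they were 309 ± 27.0, 355 ± 11.0, 391 ± 52.3 in KA_enriched and 400 ± 8.00 in PBS_enriched. The 2 enriched groups overlapped in all 3 genes, and the 2 isolated groups overlapped in Nr4a1 and Nr4a2 but not in Nr4a3.

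The housing difference was larger after KA than after PBS in each of the 3 genes, with a log2 of 0.40 against 0.17 (SE 0.11 each) in Nr4a1, 0.37 against 0.29 (SE 0.099 each) in Nr4a2 and 0.32 against 0.17 (SE 0.093 each) in Nr4a3. The difference within each pair is the interaction of KA and housing, which limma did not call (adjusted p = 0.961, 0.983 and 0.961). Single samples weighed on these values: without KA_enriched replicate 2 the interaction was 0.11 for Nr4a1 and 0.049 for Nr4a3, against 0.23 and 0.15 with it. Without KA_isolated replicate 3 it was 0.082 for Nr4a3. Without PBS_isolated replicate 3 the Nr4a1 difference after PBS was 0.078. After KA, all 4 Nr4a probe sets above the filter had their 3 enriched samples above their 3 isolated samples, as had 6.28% of the 9520 probe sets. After PBS this held for 2 of the 4, the brighter probe sets of Nr4a2 and Nr4a3, against 5.49% of probe sets. Over both treatments 0 of the 4 separated 6 samples from 6, as 0.189% of probe sets did with enriched above isolated. Nothing is read from these shares, since the genes were chosen for this difference. Over all probe sets, limma called 0.021% in the mean housing effect at an adjusted p under 0.05.

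The second probe set of Nr4a3 had the same direction of the housing difference as the first, and that of Nr4a2 had it after KA but not after PBS. The dimmer Nr4a3 probe set had 18.1, 23.8 and 14.9 in isolated rats given PBS and 19.5, 14.5 and 23.2 in those given KA. The enriched rats had 35.1, 28.7 and 32.9 with PBS and 25.3, 35.1 and 44.2 with KA. Every enriched sample lay above every isolated one, as in 0.227% of the 15866 probe sets that were not controls. Nothing is read from this share either, since the gene was chosen for its housing difference on these arrays. The means were 19.0 ± 3.97 and 33.6 ± 6.49 (SD, n = 6), a log2 difference of 0.49 (SE 0.10). This probe set stands at the 27th percentile of mean signal, close to the added 17.

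The dimmer Nr4a2 probe set, at the 43rd percentile, followed housing only after KA. Isolated rats had 52.6, 68.5 and 51.9 after PBS and 47.1, 33.6 and 44.9 after KA. Enriched rats had 48.4, 51.6 and 49.4 after PBS and 62.0, 74.8 and 67.1 after KA. After PBS the enriched mean was the lower, 49.8 ± 1.61 against 57.7 ± 9.39 (SD, n = 3; log2 -0.15, SE 0.11). After KA it was the higher, 68.0 ± 6.45 against 41.9 ± 7.21 (log2 0.53, SE 0.11), without overlap. Averaged over both treatments the housing difference was 0.19 (SE 0.076). Both Nr4a2 probe sets carry the same accession in the annotation, and which part of the transcript each reads was not analysed here.

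KA against PBS asks whether the seizure agent left a mark on these genes at the time of sacrifice. The labels do not give the time since treatment, so a short-lived early response cannot be judged from these values. In isolated rats all 3 genes had lower signal after KA by their brightest probe set, but limma called 0 of the 4 tested Nr4a probe sets, with 1 of 4 at an unadjusted p under 0.05. Over the whole table it called 0.0105% of the 9520 probe sets, and 4.31% had an unadjusted p under 0.05. Nr4a3 was nearest among the brighter probe sets, with a log2 of -0.19 (SE 0.093, 95% interval -0.40 to 0.0072, limma adjusted p = 0.999). Its 3 KA_isolated samples lay below all 3 PBS_isolated samples, as in 5.62% of probe sets. The dimmer Nr4a3 probe set, which was not tested, was not lower after KA, with means of 18.9 after PBS and 19.1 after KA. Nr4a1 had -0.19 (SE 0.11, interval -0.43 to 0.050) and Nr4a2 -0.089 (SE 0.099, interval -0.30 to 0.13), both with adjusted p = 0.999 and with overlapping groups. The dimmer Nr4a2 probe set had -0.34 (SE 0.11, interval -0.58 to -0.11, unadjusted p = 0.00693, adjusted p = 0.999), with all 3 KA samples below all 3 PBS samples. That is 1.27-fold lower in signal plus 17, with mean signals of 57.7 after PBS and 41.9 after KA.

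In enriched rats the brighter probe sets stood near 0 between KA and PBS. Nr4a1 had a log2 of 0.037 (SE 0.11, 95% interval -0.20 to 0.28), Nr4a2 -0.010 (SE 0.099, interval -0.22 to 0.20) and Nr4a3 -0.042 (SE 0.093, interval -0.24 to 0.16). Their limma adjusted p-values were 0.987, 0.992 and 0.982, and all 3 pairs of groups overlapped. The dimmer Nr4a2 probe set had the opposite sign to isolated rats, with 0.35 (SE 0.11, interval 0.11 to 0.58, unadjusted p = 0.00676, adjusted p = 0.932). Its 3 KA_enriched samples lay above all 3 PBS_enriched samples, as in 5% of probe sets. limma called 0% of the 9520 probe sets in enriched rats, and 4.98% had an unadjusted p under 0.05.

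With both housings averaged, KA against PBS gave -0.077 (SE 0.079) for Nr4a1, -0.049 (SE 0.070) for Nr4a2 and -0.12 (SE 0.066) for Nr4a3, each with a limma adjusted p = 0.996. None of the 4 Nr4a probe sets was called or had an unadjusted p under 0.05, against 0.0105% and 4.31% of the table. The 95% intervals were -0.25 to 0.093, -0.20 to 0.10 and -0.26 to 0.025, so that a change larger than about 0.26 in either direction lies outside all 3. The dimmer Nr4a2 probe set had 0.0007 (SE 0.076), with opposite values in the 2 housings.

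The interaction subtracts the KA effect of isolated rats from that of enriched rats. It was positive in all 4 tested Nr4a probe sets, and limma called 0 of them, with 1 of 4 at an unadjusted p under 0.05 against 4.97% of the table, in which 0% was called. Nr4a1 had 0.23 (SE 0.16, 95% interval -0.11 to 0.57), Nr4a2 0.078 (SE 0.14, interval -0.22 to 0.38) and Nr4a3 0.15 (SE 0.13, interval -0.13 to 0.44), with adjusted p = 0.961, 0.983 and 0.961. The dimmer Nr4a2 probe set had 0.69 (SE 0.15, interval 0.36 to 1.02, unadjusted p = 0.000554, adjusted p = 0.758). With KA below PBS in isolated and above PBS in enriched rats, and no overlap in either, it shared its pattern with 0.378% of probe sets. The difference between the 2 Nr4a2 probe sets in this value was not tested.

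**Figure D2:**
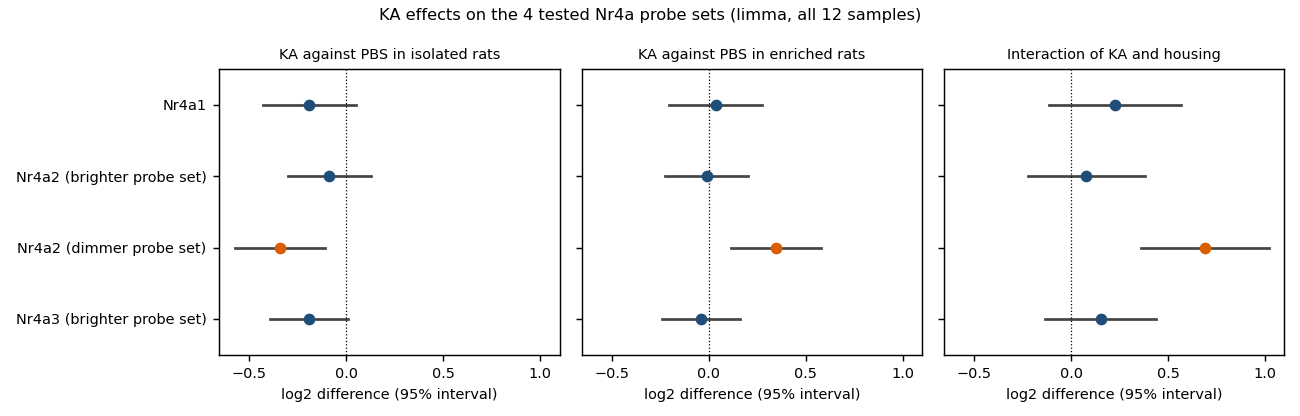
Log2 differences with 95% intervals (limma, all 12 samples) for the 4 Nr4a probe sets above the filter, in KA against PBS within each housing and in the interaction. The brighter probe sets have intervals that include 0 in each panel, while the dimmer Nr4a2 probe set lies at -0.34, 0.35 and 0.69.

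Within a housing, Nr4a1 and Nr4a3 had the highest correlations among the 3 genes, and none of the 10 relations passed after adjustment. Correlations of log2 values were computed over 6 samples per housing for 5 pairs of probe sets. PBS and KA samples were pooled without centring, so a KA difference is part of each correlation. The permutations exchanged samples across treatments, so their p-values do not set the treatment apart. In enriched rats Nr4a1 and Nr4a3 had Pearson's r = 0.82 (exact permutation p = 0.0444, adjusted p = 0.444) and Spearman's rho = 0.77 (exact permutation p = 0.103, adjusted p = 0.681). Without the 2 samples farthest from the Nr4a1 median, r was 0.84. In isolated rats the same pair had r = 0.65 (exact permutation p = 0.169, adjusted p = 0.565) and rho = 0.71 (exact permutation p = 0.136, adjusted p = 0.681), and r = 0.55 without the 2 farthest samples. KA_enriched replicate 2 shows the contrast, being highest of all samples for Nr4a1 at 243 and Nr4a3 at 451, but lowest of the enriched samples for the brighter Nr4a2 probe set at 121.

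Nr4a2 had r = -0.51 with Nr4a1 (exact permutation p = 0.279, adjusted p = 0.698, rho = -0.09 with p = 0.919, adjusted p = 1) and -0.70 with Nr4a3 (exact permutation p = 0.119, adjusted p = 0.565, rho = -0.31 with p = 0.564, adjusted p = 1) in enriched rats. Without the 2 farthest samples r was -0.12 and 0.50. Too few samples remain for this to show what the values over 6 samples rest on. In isolated rats the values were -0.31 and 0.18 (exact permutation p = 0.639 and 0.699, adjusted p = 0.873 for both; rho = -0.26 and -0.09, with p = 0.658 and 0.919, adjusted p = 1 for both), and 0.04 and -0.89 without the 2 farthest. The 2 probe sets of Nr4a2 did not track each other either, with r = 0.09 in isolated and -0.37 in enriched rats (exact permutation p = 0.799 and 0.471, adjusted p = 0.887 and 0.785; rho = 0.03 and -0.26, with p = 1 and 0.658, adjusted p = 1 for both; r = -0.17 and -0.23 without the 2 farthest). Those of Nr4a3 had r = -0.46 and 0.01 (exact permutation p = 0.393 and 0.981, adjusted p = 0.785 and 0.981; rho = -0.14 and -0.03, with p = 0.803 and 1, adjusted p = 1 for both; r = -0.04 and 0.75 without the 2 farthest).

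**Figure D3:**
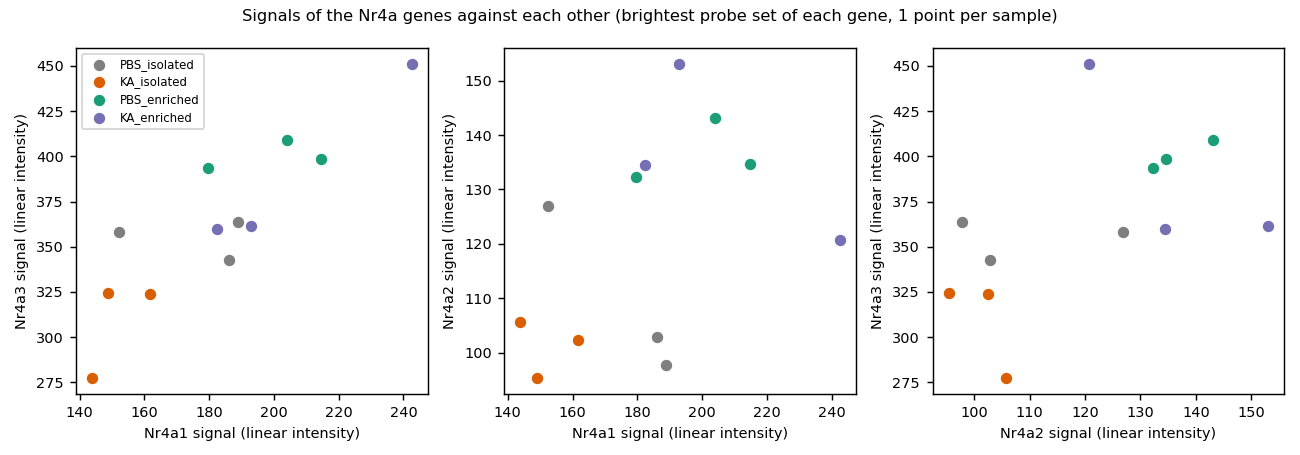
Linear signal of each Nr4a gene against another, by the brightest probe set, with a point for each of the 12 samples coloured by group. Nr4a1 and Nr4a3 climb together to KA_enriched replicate 2 at 243 and 451, a sample in which Nr4a2 has 121, the lowest of the enriched samples.

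Over all 12 samples the genes with patterns most like each member were ranked among 6922 others by Pearson's r of log2 values, as a description in which housing is part of the likeness. Nr4a1 was most like Arc, the activity-induced synaptic regulator, with r = 0.91 (Spearman's rho 0.83). Next came Nr4a3 (r = 0.87), the splicing factor genes Prpf18 (0.85) and Sf3b1 (0.84), and Tdrd3 (0.81). Nr4a3 was most like Sorl1, a sorting receptor for the amyloid precursor protein (r = 0.93), followed by the potassium channel gene Kcnd2 (0.90), the endoplasmic reticulum chaperone gene Hspa5 (0.87), Nr4a1 (0.87) and the RNA-binding protein gene Hnrnph1 (0.86). Arc stood 6th for Nr4a3, at 0.86.

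Nr4a2 had other neighbours. Its brighter probe set was most like Klc1, a kinesin light chain (r = 0.85), Ints10 of the Integrator complex (0.84), the cohesin loader gene Mau2 (0.82), the translation factor gene Eif2b1 (0.82) and the transcription factor gene Casz1 (0.81). Egr1, an immediate early transcription factor, stood 15th for Nr4a2 (r = 0.77), 38th for Nr4a1 (0.73) and 45th for Nr4a3 (0.72). Arc was 223rd for Nr4a2 (0.60), Nr4a3 324th (0.55) and Nr4a1 674th (0.45). When genes were ranked for Nr4a1 by their most alike probe set, that of Nr4a2 was the dimmer one, 199th at 0.60.

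**Figure D4:**
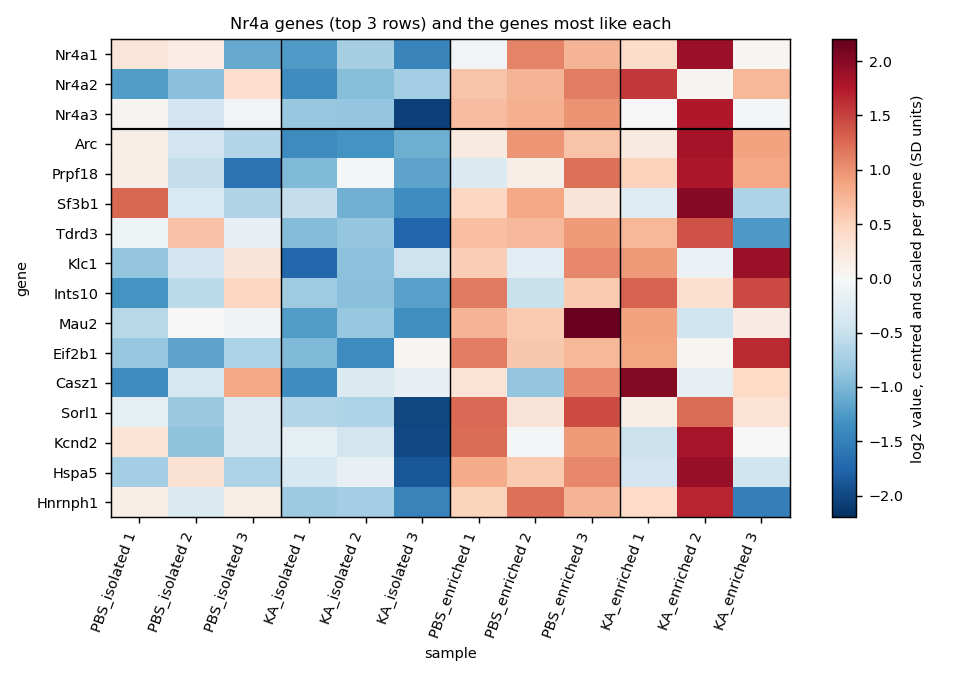
Log2 values centred and scaled per gene in the 12 samples, for the 3 Nr4a genes and the 5 genes most like each. Red cells gather in the 6 enriched samples on the right, and the column of KA_enriched replicate 2 is the reddest for Nr4a1, Nr4a3 and Arc but near the mean for Nr4a2.

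Other immediate early genes are given beside the Nr4a genes for comparison. Egr1 had 398 ± 18.3 in KA_isolated, 448 ± 29.7 in PBS_isolated, 584 ± 69.6 in PBS_enriched and 588 ± 37.3 in KA_enriched (SD, n = 3). Arc had 191 ± 8.59, 249 ± 27.6, 318 ± 32.7 and 356 ± 78.6 in the same order of groups. Junb, an AP-1 component, had 92.4 ± 4.83, 110 ± 19.3, 136 ± 8.43 and 131 ± 14.4. Fos, another AP-1 component that lay below the filter, had 31.4 ± 2.59, 35.4 ± 10.3, 60.7 ± 20.8 and 70.3 ± 3.23. KA_isolated had the lowest mean in each of these 4 genes, but not in all immediate early transcription factors. Jun had its highest mean there, at 293 ± 13.1 against 262 ± 11.5 in PBS_isolated, and Egr4 had its lowest in PBS_isolated, at 56.3 ± 8.91 against 59 ± 9.4 in KA_isolated (SD, n = 3). Both were picked for this contrast after their values were seen. Of the 12 tested immediate early transcription factors, 5 had a positive and 7 a negative KA difference in isolated rats, with a median log2 of -0.014.

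Most of the tested immediate early transcription factors outside the family had a positive housing difference. Of 24 listed, 22 were on the array and 12 above the filter, 9 of those with a positive housing difference and a median log2 of 0.047, against 50.8% positive and a median of 0.0016 over 6923 genes. The highest were Egr4 (0.56, SE 0.095), Egr1 (0.45, SE 0.065) and Junb (0.36, SE 0.075), and the lowest was Klf10 (-0.13, SE 0.079). In 2 of the 12, every enriched sample lay above every isolated one, against 0.189% of the 9520 probe sets. The list was chosen with earlier results of these data known, so nothing is read from this count. Among 15 tested activity-regulated effectors 10 were positive, with a median of 0.030, from Per1 at -0.24 (SE 0.18) to Arc at 0.58 (SE 0.093). Dusp1, a phosphatase that switches off MAP kinases, had 0.29 (SE 0.13) and Bdnf, a neurotrophin, 0.16 (SE 0.062).

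Upstream regulators of the Nr4a genes were centred on no difference, with 8 of 18 positive and a median of -0.010. The exceptions in size were Creb1, the cyclic AMP response factor, at 0.28 (SE 0.094), and Camk4, a calcium-dependent kinase of that pathway, at -0.27 (SE 0.16). Creb1 signal was 104 ± 13.7 after PBS and 104 ± 11.3 after KA in isolated rats, and 133 ± 9.59 and 128 ± 29.2 in enriched rats (SD, n = 3). Elk1 (-0.11, SE 0.078) and Rps6ka2 (0.11, SE 0.069) followed in size.

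Partners and relatives of the Nr4a proteins had medians near 0 with single genes on either side. Of the retinoid X receptors, which pair with Nr4a1 and Nr4a2 on DNA, and the coregulators, 6 of 13 listed genes were tested, from Rxrg at -0.039 (SE 0.13) to Ncor1 at 0.021 (SE 0.065), with a median of -0.013. The coactivator gene Ncoa3 was below the filter and was named after its values were seen. It had 44.3 ± 4.55 and 34 ± 1.68 in isolated rats after PBS and KA, and 19.5 ± 6.73 and 27.7 ± 6.05 in enriched rats (SD, n = 3). Its samples did not overlap between housings, but the share of probe sets lower in enriched rats without overlap was not computed. Of 38 other nuclear receptors 31 were on the array and 15 above the filter, with a median of -0.00054 and 7 positive. The largest were Esrrb, an estrogen-related receptor, at 0.26 (SE 0.15), and Nr2f2, an interneuron transcription factor, at -0.19 (SE 0.073). Of 9 genes tied to dopaminergic neurons that depend on Nr4a2, 3 were above the filter, Aldh1a1 at 0.19 (SE 0.13), Ddc at 0.051 (SE 0.065) and Vip at 0.028 (SE 0.068). Th, the tyrosine hydroxylase gene that Nr4a2 activates in the midbrain, was below the filter at 28.5 ± 3.40, 27.9 ± 6.46, 21.8 ± 3.71 and 28.4 ± 6.80 in PBS_isolated, KA_isolated, PBS_enriched and KA_enriched (SD, n = 3).

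**Figure D5:**
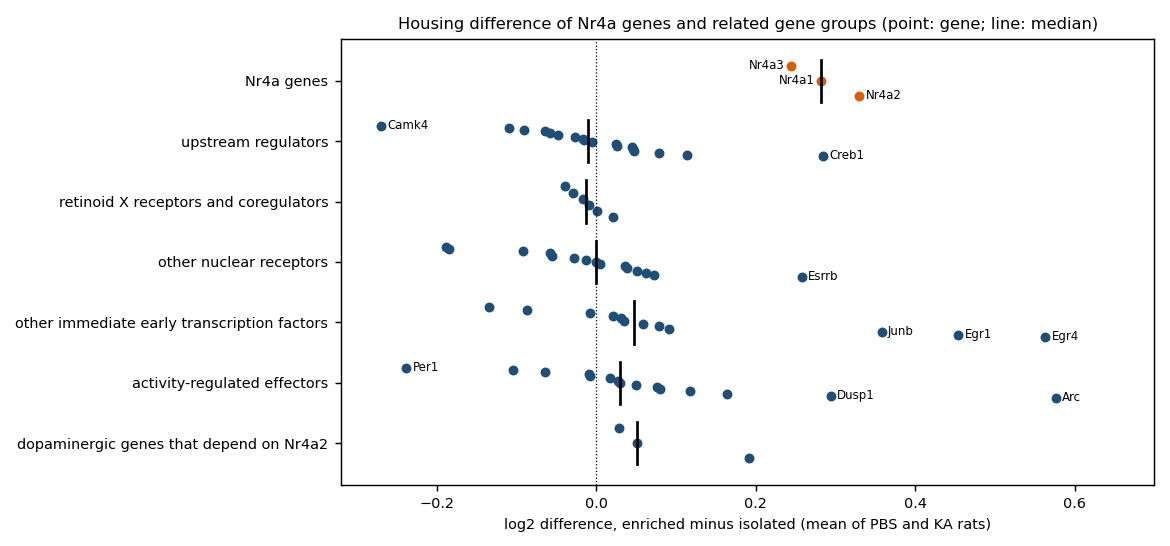
Log2 difference of enriched minus isolated rats, mean of both treatments, for the Nr4a genes and 6 related gene groups, with a point per gene and a line at the median. The Nr4a genes were chosen by this difference, so their place on the axis is given by the choice. The other medians run from -0.013 to 0.051. As single genes, Arc, Egr4, Egr1, Junb, Dusp1, Creb1 and Esrrb lie above Nr4a3, the lowest of the Nr4a genes.

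In the KA comparisons limma called 0 genes of these 6 groups. Over all probe sets, 4.31% in isolated and 4.98% in enriched rats had an unadjusted p under 0.05. Such p-values were reached in isolated rats by 0 of 18 upstream regulators, 0 of 6 partners and coregulators, 1 of 15 other nuclear receptors, 1 of 12 immediate early transcription factors, 2 of 15 effectors and 0 of 3 dopaminergic genes. In enriched rats the counts were 2, 0, 1, 0, 1 and 0. Medians of the KA effect in isolated rats ran from -0.044 in the dopaminergic genes to 0.014 in the other nuclear receptors, while the 3 Nr4a genes had -0.19 and all 6923 genes -0.0025. In the mean of both housings, Per1, a clock gene, had 0.60 (SE 0.18), the estrogen-related receptor gene Esrra -0.25 (SE 0.090), the thyroid hormone receptor gene Thrb 0.22 (SE 0.098) and Atf2, a CREB relative, -0.16 (SE 0.073), each with a limma adjusted p = 0.996.

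Hippocampal neuron markers were read as a description of the labelled tissue, since levels of different probe sets are not comparable. Of 19 listed, 15 were on the array and 13 above the filter, among them Prox1 of granule cells at 237 to 248 and Wfs1 of CA1 pyramidal cells at 742 to 955 over the group means, while C1ql3 was at 3.1 to 4.33 on its probe set. Their summed signal was 7445 to 8333 over all samples, and their median housing difference was -0.0035. Thalamus and striatum markers had higher signal with enrichment, with 7 of 8 tested positive and a median log2 of 0.12. Their summed signal in isolated rats was 997.2 to 1093 after PBS and 1010 to 1096 after KA, and in enriched rats 1079 to 1144 and 1076 to 1156. Striatum also expresses Nr4a genes, and the part of these markers in the Nr4a difference was not tested. The striatal genes Drd1, Drd2, Adora2a and Tac1 lay below the filter, with group means of 34.5 to 45.4, 28.9 to 37.6, 17 to 24.1 and 33.7 to 46.4. Of these, Adora2a had both enriched means above both isolated means, and Drd1, Drd2 and Tac1 did not. Deep cortex, claustrum and subiculum markers, of regions where Nr4a2 is abundant, had a median of -0.019 over 6 genes. In bulk tissue, fewer cells of a type and less RNA per cell cannot be told apart.

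Microglia and macrophage markers had higher signal after KA in isolated rats, with 14 of 14 tested positive and a median log2 of 0.51, against 49% positive and a median of -0.0025 over all genes. limma called 0 of the 14, and 11 had an unadjusted p under 0.05, against 4.31% of all probe sets. Their summed signal in isolated rats was 2131 to 2236 after PBS and 2917 to 3435 after KA, and in enriched rats 2176 to 3166 and 1951 to 3165. Among enriched samples PBS_enriched replicate 2 (3166) and KA_enriched replicate 3 (3165) stood apart, the next highest being 2261. The part of these markers in the lower Nr4a signal of KA_isolated rats was not tested. Choroid plexus markers summed to 961.3 to 3876 in PBS_isolated, and their range over the other 3 groups was 892.7 to 1619. KA_enriched replicate 3 had the lowest mean correlation with the other arrays, 0.983, and the highest log2 ratio of 3 prime to 5 prime beta-actin signal, 0.856. That ratio, a measure of RNA quality, averaged 0.47 ± 0.0996 and 0.47 ± 0.148 in isolated rats after PBS and KA, and 0.55 ± 0.0561 and 0.65 ± 0.185 in enriched rats (SD, n = 3). With it as a covariate the mean housing differences of Nr4a1, Nr4a2 and Nr4a3 were 0.33, 0.36 and 0.26, and without KA_enriched replicate 3 they were 0.32, 0.33 and 0.27.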

How the data were processed

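The deposited values are probe set intensity on a linear scale for 15923 probe sets in 12 samples. How probe signals were summarised was not given in the sources used here. Every array has the same mean, 150, once the lowest and highest 2% are left out, and array medians run from 70.06 to 74.1, so the intensity was used as the authors deposited it. The 57 control probe sets were left out, 17 (the 20th percentile of the table) was added before log2, and the 60% of probe sets with the highest mean, 9520, went into a limma fit (version 3.58.1, R 4.3.3). The model had a mean per group over all 12 samples, with two-sided p-values and a Benjamini-Hochberg adjustment over the 9520. The threshold was 0.05. Figures were drawn with matplotlib 3.10.9.

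Gene symbols came from the array annotation: 12789 probe sets had 1 symbol, 312 had several and 2822 stay unnamed. Through their Entrez ID 12754 of the 12789 matched a RefSeq gene, and 0 symbols changed. Promoters are from RefSeq, build GRCr8, matched by symbol for 2 of the 3 Nr4a genes. A gene is shown by its probe set of highest mean, and all Nr4a probe sets are given. Brighter, dimmer and percentile refer to array signal alone, which is not read as a difference in RNA level between probe sets. Summed signals weigh bright probe sets most. Named by rule besides the members are the 5 genes most like each, up to 4 genes of a list by size or p, and Egr1, Arc, Fos and Junb. Jun, Ncoa3, Th and single tissue markers are named outside this rule. The members, the lists and this rule were chosen with earlier results of these data known. The number of arrays limits the precision. The limma fit was tested on simulated data with changes set in KA_isolated samples, and the other steps were not. Alternatives changed the scaling, the added value, the filter, the weights, the block, the samples and the covariates.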

Additional observations from a re-analysis of the deposited data

Results flagged for a closer look

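The dimmer Nr4a2 probe set was picked out because KA and PBS samples separated in opposite directions in the 2 housings. In isolated rats the 3 KA samples (33.6 to 47.1) lay below the 3 PBS samples (51.9 to 68.5). In enriched rats the 3 KA samples (62.0 to 74.8) lay above the 3 PBS samples (48.4 to 51.6). Both separations together, in these directions, were seen in 0.378% of the 9520 probe sets. The rule also took the reverse directions, whose share was not computed. The test of the difference itself, the interaction, gave a log2 of 0.688 (SE 0.152, limma adjusted p = 0.758), which did not pass. The brighter Nr4a2 probe set gave 0.078 (SE 0.14).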

How the results depend on the processing

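Over 23 alternative settings, 12 of them leaving out 1 sample, 0 of the 16 tested Nr4a results reached an adjusted p under 0.05. Signs near 0 turned. With array weights and with the beta-actin ratio as a covariate, KA against PBS in enriched rats was 0.0483 and 0.0135 for Nr4a2. Without PBS_enriched 2 and KA_enriched 3, which stand apart from the other enriched samples in microglial signal, it was 0.0085 for Nr4a3. The mean KA effect of the dimmer Nr4a2 probe set was -0.00902 with 1 added before log2, -0.0186 with array weights and -0.027 with the covariate. Leaving out 1 sample gave ranges of -0.153 to 0.00964 for Nr4a2 in isolated rats, and of -0.0782 to 0.113, -0.089 to 0.0635 and -0.145 to 0.0118 for Nr4a1, Nr4a2 and Nr4a3 in enriched rats. It gave -0.0319 to 0.0531 for the mean KA effect of the dimmer Nr4a2 probe set and -0.0199 to 0.152 for the Nr4a2 interaction. The Nr4a1 and Nr4a3 interactions ran from 0.112 to 0.318 and from 0.0491 to 0.206. With the other probe set, KA gave 0.345 (Nr4a2) and 0.0618 (Nr4a3) in enriched rats, 0.00623 (Nr4a3) in isolated rats, and 0.000697 and 0.034 in the mean. Housing then gave 0.19 and 0.487 in the mean, -0.154 and 0.46 after PBS, and 0.534 and 0.515 after KA. The cause of these changes was not tested.

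Counts of called probe sets moved from 1 to 5 for KA in isolated rats with only those groups fitted and to 12 without both of these samples, and from 1 to 0 for the mean KA effect with no filter or without both samples. For the mean housing effect they moved from 2 to 1 with equal medians, 1 added, array weights, the covariate or the replicate block, and ran from 1 to 2 without 1 sample. After PBS the count went from 1 to 2 with the 40% brightest probe sets or array weights, and ran from 1 to 2 without 1 sample. After KA it went from 0 to 9 without both samples, and ran from 0 to 1 without 1 sample. Probe sets with enriched above isolated without overlap numbered 18, against 11 with equal medians and 36 with no filter. Samples share only a replicate number, for which the main model has no term. Of 18 same-numbered pairs 2 had deviations correlated above 0.1 (median 0.0564). Of 36 other-numbered pairs 1 had (median -0.0154). With 12 arrays, small effects are not resolved.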
